A study of Homo sapiens with 9 samples.

Results

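A set of 9 chemokine genes, of the 58920 genes in the count files, was followed at the transcript level in a colorectal cancer cell line and in its cetuximab-resistant derivatives. The set holds the CXC chemokines CXCL1, CXCL2, CXCL3, CXCL5, CXCL8, CXCL14 and CXCL16 and the CC chemokines CCL15 and CCL20. The genes were selected by symbol with earlier results of the same libraries known, and CXCL14 was selected on its absence from the parental libraries. The level of CXCL14 against parental cells is therefore given as a description with no test. Nothing is read from how many of the 9 genes were called in any comparison.

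LIM1215 is a RAS wild-type colorectal cancer line that is initially sensitive to cetuximab, an antibody against the epidermal growth factor receptor. LIM1215-R1 and LIM1215-R2 are 2 cell populations, not single clones, that were derived separately from it under slowly rising cetuximab and were afterwards kept with a maintenance dose. LIM1215-parental was cultured in parallel without the antibody, and polyA RNA of all 3 lines was sequenced from basal, untreated cultures, with 3 libraries per line (labelled Parental, Resistant_1 and Resistant_2, and called parental, R1 and R2 below). The study describes the 3 libraries of a line as technical replicates, so the p-values measure only the spread between these libraries, and a difference between lines cannot be told apart from a difference between single cultures or harvests.

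The libraries held between 13737416 and 18725014 counts, and values are given as CPM, the count scaled to the TMM-adjusted library size, mean ± SD over 3 libraries. Of the 9 colon epithelial marker genes on the list used here, 8 were above 1 CPM and KRT20 was at 0, and their summed level was 12143 to 12504 CPM in parental cells, 15484 to 15765 CPM in R1 and 14023 to 14430 CPM in R2. All 8 leukocyte markers stayed under 1 CPM, with PTPRC, CD3E and NKG7 at 0 and sums of at most 0.563 CPM. All 5 endothelial markers were under 1 CPM as well, with KDR at 0. The 7 fibroblast markers summed to 2.46 to 3.19 CPM in parental cells, 1.63 to 1.72 CPM in R1 and 1.19 to 1.61 CPM in R2, with COL1A2 and PDGFRA at 0. The epithelial sum was carried by KRT8 (5716, 7882 and 7169 CPM in parental cells, R1 and R2) and KRT18 (4131, 5498 and 5007 CPM), which rose with VIL1 in both resistant lines. EPCAM, CDX2, CDX1 and LGALS4 fell in both, and CDH1 was not called (378, 343 and 347 CPM). The markers thus did not move together, and their part in the chemokine results was not tested. In bulk RNA, fewer cells that transcribe a gene and less RNA of it per cell cannot be told apart.

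Chemokines are small secreted proteins that bind G protein-coupled receptors and direct the migration of leukocytes. CXCL1, CXCL2, CXCL3, CXCL5 and CXCL8 carry a glutamate-leucine-arginine (ELR) motif before the first cysteines and attract neutrophils. They act mainly on CXCR2, and CXCL8 acts strongly on CXCR1 too. Their genes lie close together on chromosome 4, and in epithelial cells their transcription is classically induced by NF-kB and AP-1 while their messenger RNAs are short-lived.

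The promoters of the ELR genes are shown because the results turn on the spread of log2 fold changes among these neighbouring, related genes. RefSeq promoter sequence (GRCh38.p14) was found for 8 of the 9 genes, CXCL16 being the one without an entry. Each run below is the 150 bases that end just before the annotated start, read 5′ to 3′ on the gene's strand. Capitals mark GGAATTTCC, the NF-kB consensus, or the AP-1 motif TGANTCA. The NF-kB consensus used was GGRRNNYYCC, where R is A or G, Y is C or T and N is any base.
CXCL8, chr4:73740419-73740568, plus strand: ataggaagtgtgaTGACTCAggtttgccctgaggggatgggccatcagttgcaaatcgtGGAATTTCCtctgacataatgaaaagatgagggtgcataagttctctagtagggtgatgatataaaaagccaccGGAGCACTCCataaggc
CXCL1, chr4:73869243-73869392, plus strand: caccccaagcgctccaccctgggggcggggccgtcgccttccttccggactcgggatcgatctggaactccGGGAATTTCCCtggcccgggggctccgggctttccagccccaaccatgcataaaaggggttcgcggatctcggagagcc
CXCL5, chr4:73998678-73998827, minus strand: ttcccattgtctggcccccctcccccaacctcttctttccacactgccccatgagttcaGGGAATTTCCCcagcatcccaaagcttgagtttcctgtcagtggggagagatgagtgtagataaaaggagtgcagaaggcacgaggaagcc
CXCL3, chr4:74038690-74038839, minus strand: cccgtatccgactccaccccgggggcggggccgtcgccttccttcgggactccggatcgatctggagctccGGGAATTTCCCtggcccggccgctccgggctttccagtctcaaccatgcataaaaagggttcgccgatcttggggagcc
CXCL2, chr4:74099196-74099345, minus strand: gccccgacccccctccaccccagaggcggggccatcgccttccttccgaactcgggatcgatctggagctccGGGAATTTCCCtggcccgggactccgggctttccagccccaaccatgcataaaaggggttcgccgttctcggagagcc

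The 5 ELR promoters all held GGAATTTCC, which begins 91 bases before the start of CXCL8, 78 before CXCL1, 90 before CXCL5, 78 before CXCL3 and 77 before CXCL2. Searched on both strands in the 250 bases before the start, with a palindromic match counted once, GGAATTTCC was found in 145 of 35116 annotated promoters (0.413%). This exact run was searched beside the broader NF-kB consensus, and its share is a description, not a test. The 5 ELR promoters are not independent cases, since the windows of CXCL1, CXCL2 and CXCL3 were 86.1% to 88.7% identical to each other. CXCL8 and CXCL5 were 43.6% to 50.6% identical to those 3 and to each other. In CXCL1, CXCL2, CXCL3 and CXCL5 the NF-kB consensus matched in 2 overlapping registers around the same bases. In CXCL8 the bases flanking GGAATTTCC fell outside this consensus, which matched only at 17 bases before the start. TGACTCA stood at 137 bases. Such matches describe the letters and are no evidence of binding.

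The promoters of CCL20 and CXCL14 are shown beside them, because these genes gave the widest differences between the resistant lines.
CCL20, chr2:227813692-227813841, plus strand: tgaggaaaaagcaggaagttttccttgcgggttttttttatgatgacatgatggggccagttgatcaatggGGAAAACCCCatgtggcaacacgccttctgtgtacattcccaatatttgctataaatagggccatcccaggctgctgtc
CXCL14, chr5:135578992-135579141, minus strand: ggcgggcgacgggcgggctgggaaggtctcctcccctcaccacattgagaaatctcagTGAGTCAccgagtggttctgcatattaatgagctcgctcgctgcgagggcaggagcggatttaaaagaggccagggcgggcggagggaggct

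The NF-kB consensus was present in 6 of the 8 promoters, CCL20 included (79 bases before its start), and in 12.3% of all promoters. TGANTCA, read on both strands, was present in CXCL8 and CXCL14 (at 92 bases) and in 6.57% of all promoters. TATAAA was found in CCL20, CXCL8 and CCL15 and in 10.7% of promoters, and CCAAT in CCL20 and CCL15 and in 32.0%. The letters of GGAATTTCC and of the NF-kB consensus were not found in the CXCL14 window, which says nothing about the factor.

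CXCL8, also known as interleukin-8 and the classical neutrophil attractant of this group, lies at chr4:73740569-73743716 on the plus strand. It measured 38.3, 30.8 and 33.5 CPM in the parental libraries, 114, 97.8 and 109 CPM in R1, and 70.1, 68.4 and 60.8 CPM in R2. Every R1 library was above every R2 library, and all 6 resistant libraries were above the parental ones. The mean rose from 34.2 ± 3.77 to 107 ± 8.47 CPM in R1, a 3.12-fold difference (log2 fold change 1.64, SE 0.0753, adjusted p = 5.08e-16, edgeR quasi-likelihood test on 19102 genes, Benjamini-Hochberg adjusted, as for all adjusted p-values here). In R2 the mean was 66.4 ± 4.96 CPM (log2 fold change 0.95, adjusted p = 7.82e-11).

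CXCL5, an epithelial-derived chemokine for neutrophils (chr4:73995642-73998677, minus strand), followed the same order of lines from a lower level. Its libraries measured 30.7, 24.5 and 29.9 CPM in parental cells, 73.0, 65.9 and 72.5 CPM in R1, and 35.4, 38.5 and 35.4 CPM in R2. The 3 groups of libraries did not overlap, but R2 was much nearer to parental cells than to R1. In R1 the log2 fold change was 1.31 (SE 0.0754, adjusted p = 7.41e-14). In R2 it was 0.35 (SE 0.0795, adjusted p = 0.000855), and this call was lost without R2 replicate 2 (log2 fold change 0.31, adjusted p = 0.0116). The annotated CXCL5 gene overlaps a long non-coding RNA gene, LOC124900715, by 450 bases at its 5′ end.

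CXCL1, CXCL2 and CXCL3, the closely related GRO chemokines, had smaller log2 fold changes in R1 than CXCL8 and CXCL5, and CXCL1 and CXCL2 fell in R2. CXCL1 (chr4:73869393-73871308, plus strand) measured 193, 191 and 199 CPM in parental cells, 218, 204 and 202 CPM in R1, and 157, 157 and 150.1 CPM in R2. The R2 libraries were all lowest, and those of R1 were just above those of parental cells. Against parental cells, CXCL1 differed by a log2 fold change of 0.10 in R1, which did not pass the threshold of 0.01 (adjusted p = 0.0934, 95% interval 0.01 to 0.20). It fell in R2 (log2 fold change -0.33, SE 0.0471, adjusted p = 2.43e-06).

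CXCL2 (chr4:74097040-74099195, minus strand) had 34.5, 37.5 and 37.7 CPM in parental cells, 41.2, 41.9 and 37.8 CPM in R1, and 26.1, 22.9 and 24.9 CPM in R2. As for CXCL1, the R2 libraries stood clearly below the other 6, while the lowest R1 library was next to the highest parental one. The log2 fold change was 0.14 in R1 (adjusted p = 0.14, 95% interval -0.01 to 0.29, not called) and -0.57 in R2 (SE 0.0759, adjusted p = 8.17e-07).

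CXCL3 (chr4:74036589-74038689, minus strand) had 95.4, 101 and 95.7 CPM in parental cells, 124, 115 and 113 CPM in R1, and 98.0, 94.1 and 88.8 CPM in R2. Here R1 was above both other lines, and the R2 and parental libraries overlapped. CXCL3 rose in R1 (log2 fold change 0.27, SE 0.0550, adjusted p = 0.000254). In R2 the value was -0.06 (adjusted p = 0.493, 95% interval -0.17 to 0.06).

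The GRO transcripts share sequence, and reads from shared stretches could be split or dropped by the counting. Of the 50-base windows of the canonical transcripts, 5.33% of CXCL1, 10.1% of CXCL2 and 5.26% of CXCL3 occurred in another of the 5 ELR transcripts, with longest shared runs of 77 bases between CXCL1 and CXCL2 and 97 between CXCL2 and CXCL3. CXCL5 and CXCL8 shared 0 windows.

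**Figure D1:**
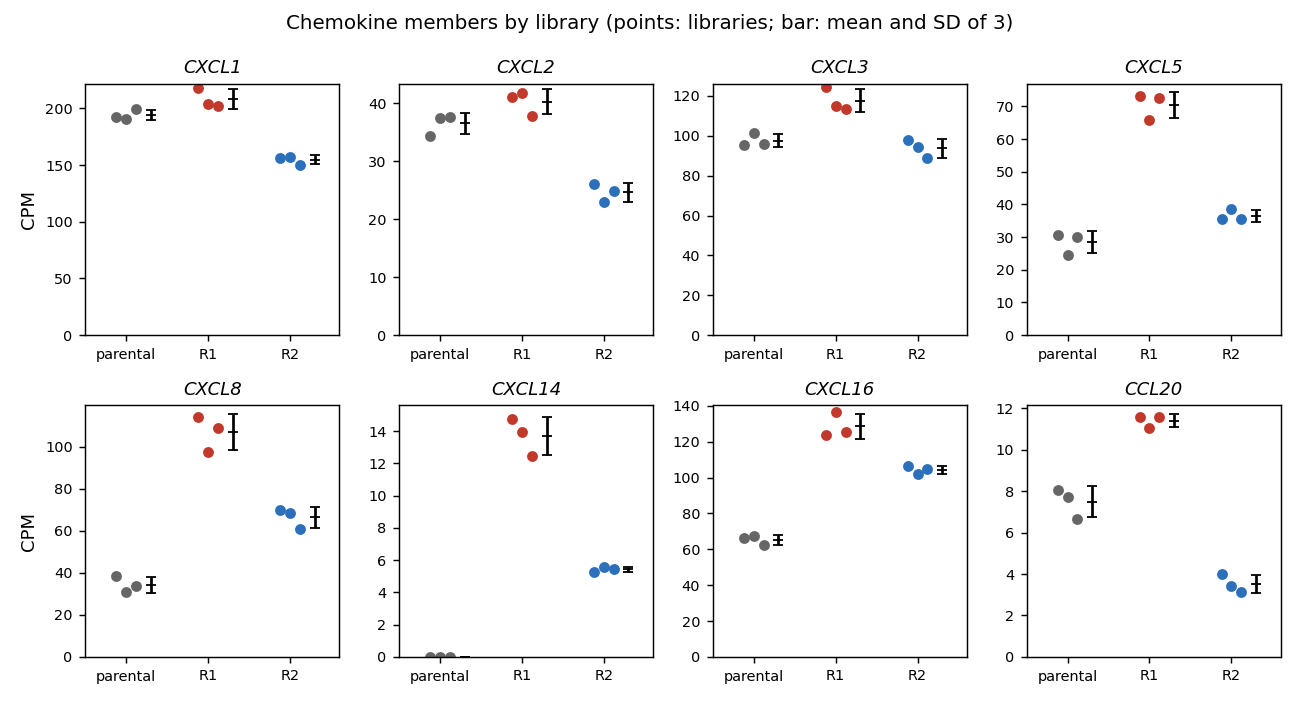
CPM (y axis, from 0, own scale per panel) of the 8 detected chemokine genes in each library of parental cells, R1 and R2 (points), with the mean and SD of 3 libraries (bars). R1 is the highest line in every panel. R2 lies above parental for CXCL5, CXCL8, CXCL14 and CXCL16, below it for CXCL1, CXCL2 and CCL20, and overlaps it for CXCL3.

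CXCL16, a transmembrane chemokine that is shed by ADAM proteases and binds CXCR6, lies outside the cluster at chr17:4733533-4739928 on the minus strand. It measured 66.1, 67.7 and 62.3 CPM in parental cells, 124, 137 and 126 CPM in R1, and 106, 102 and 105 CPM in R2. The lines did not overlap. CXCL16 rose in both resistant lines, and the log2 fold change was 0.98 in R1 (SE 0.0555, adjusted p = 4.81e-14) and 0.68 in R2 (SE 0.0559, adjusted p = 1.19e-10). Its annotated ends overlap MED11 by 75 bases and ZMYND15 by 96 bases.

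CCL20, the ligand of CCR6 that attracts dendritic cells and lymphocytes to mucosal surfaces, lies at chr2:227813842-227817556 on the plus strand. It was at 8.08, 7.73 and 6.67 CPM in parental cells, 11.6, 11.04 and 11.6 CPM in R1, and 3.98, 3.41 and 3.13 CPM in R2. The parental libraries were thus in the middle, with all R1 libraries above them and all R2 libraries below them. CCL20 rose in R1 (log2 fold change 0.61, SE 0.120, adjusted p = 0.00018) and fell in R2 (log2 fold change -1.08, SE 0.144, adjusted p = 7.59e-07). These levels rest on 371, 550 and 170 counts in parental cells, R1 and R2.

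CXCL14, a chemokine made by normal epithelia and lacking the ELR motif, lies at chr5:135570679-135578991 on the minus strand. It had 0 counts in each of the 3 parental libraries, the property it was selected on. In R1 it had 240, 222 and 199 counts (14.7, 13.9 and 12.4 CPM), and in R2 89, 90 and 83 counts (5.29, 5.57 and 5.42 CPM). A parental count of 0 allows up to 3 counts over the 3 libraries, or 0.0602 CPM, with counting error only. Against that limit the R1 level of CXCL14 was at least 228-fold higher, and the R2 level at least 90.2-fold higher.

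CCL15, a ligand of CCR1 expressed in gut, had 0 counts in all 9 libraries, which allows a level of up to 0.0205 CPM. Its gene (chr17:35997582-36001553, minus strand) lies wholly within the readthrough gene CCL15-CCL14, so that reads in it could be counted as ambiguous. CCL15-CCL14 itself had 5 counts in the 9 libraries, and CCL14 had 0. CCL15 was below the minimum of 10 counts over all libraries and was not tested.

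Of the 7 chemokine genes tested against parental cells (without CXCL14 and CCL15), 5 were called higher in R1 at an adjusted p of at most 0.01 (CXCL3, CXCL5, CXCL8, CXCL16 and CCL20) and 0 lower, by edgeR's test (0 lower also at an unadjusted p under 0.05 and by DESeq2). The corresponding shares of all tested genes were 14.0% higher and 13.4% lower. With the study's additional minimum of 1.5 on the absolute log2 fold change, 1 gene remained (CXCL8), beside 5.14% of all genes. The median log2 fold change of the 7 was 0.61, and that of all genes -0.01.

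In R2, 3 of the 7 were called higher (CXCL5, CXCL8 and CXCL16) and 3 lower (CXCL1, CXCL2 and CCL20), beside 12.3% higher and 11.6% lower among all genes. None of the 7 passed the fold minimum (0 genes, beside 4.82% of all genes), although 6 had adjusted p-values within the threshold, and by DESeq2 0 passed it too. Their median log2 fold change was -0.06. Both comparisons use the same parental libraries and are not independent of each other.

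**Figure D2:**
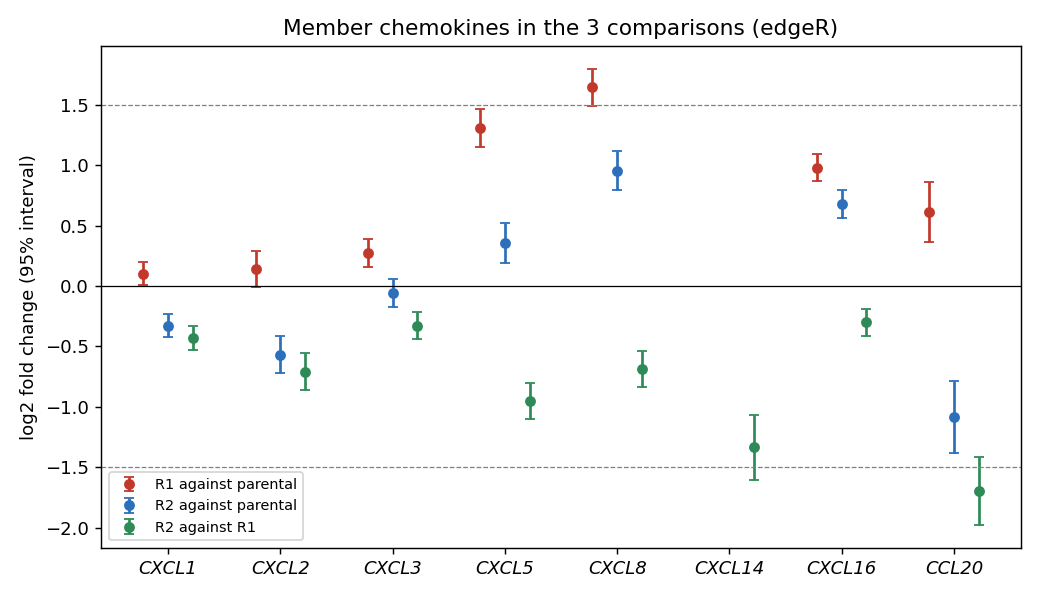
Log2 fold changes (y axis) of the tested chemokine genes (x axis) with 95% intervals from edgeR for R1 against parental (red), R2 against parental (blue) and R2 against R1 (green). Dashed lines mark the fold minimum of 1.5. CXCL14 has no value against parental because it had 0 counts there. All 8 green points are below 0, from -0.30 for CXCL16 to -1.69 for CCL20.

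The comparison of the resistant lines with each other tests directly whether they differed in these genes. All 8 detected genes were lower in R2 than in R1 and none had overlapping libraries. By edgeR 8 of 8 were called lower and 0 higher (8 and 0 at an unadjusted p under 0.05 and by DESeq2). Of all tested genes, 3.77% were called lower and 3.39% higher, and the libraries did not overlap for 14.0% in each direction. The count of 8 is a description, since the genes were chosen with earlier results known and the ELR genes among them are neighbours. CCL20 differed most (log2 fold change -1.69, SE 0.136, adjusted p = 7.14e-10), and it was the 1 gene past the fold minimum, beside 0.764% of all genes. CXCL14 followed at -1.33 (SE 0.129, adjusted p = 4.68e-08), then CXCL5 at -0.95 (adjusted p = 3.35e-10).

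CXCL2 differed by -0.71 (adjusted p = 1.26e-07), CXCL8 by -0.69 (adjusted p = 6.82e-08) and CXCL1 by -0.43 (adjusted p = 1.96e-07). The smallest differences were those of CXCL3, -0.33 (adjusted p = 0.000123), and CXCL16, -0.30 (adjusted p = 0.000253). The median over the 8 genes was -0.70, beside -0.00108 over all genes.

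To compare levels between the genes, CPM was divided by the length of the GENCODE canonical transcript (CPM per kb), although the counting may have used other transcript models. CXCL1 was the most abundant of them in every line, at 165 CPM per kb in parental cells, 177 in R1 and 132 in R2. CXCL3 came next in each, at 90.7, 109 and 87.1 CPM per kb. In parental cells the order went on with CXCL2 (32.8), CXCL16 (28.1), CXCL8 (20.8), CXCL5 (11.6) and CCL20 (8.99 CPM per kb).

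CXCL8 moved from rank 5 in parental cells to rank 3 in R1 (65.2 CPM per kb) and to rank 4 in R2 (40.5 CPM per kb, behind CXCL16 at 44.9). CXCL14 was the least abundant detected gene, at 8.12 CPM per kb in R1 and 3.22 in R2. In no line did the libraries of genes next to each other in this order overlap.

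The 5 ELR genes together reached 321 ± 3.37 CPM per kb in parental cells, 417 ± 18.4 in R1 and 296 ± 10.8 in R2. The sum was thus highest in R1, and its libraries (405 to 438) did not overlap those of parental cells (319 to 325) or R2 (284 to 305). The make-up of the sum differed between the lines too. CXCL1 made up 51.4% ± 0.663 of it in parental cells, 42.5% ± 0.328 in R1 and 44.4% ± 0.658 in R2. CXCL8 made up 6.49% ± 0.729, 15.6% ± 0.818 and 13.6% ± 0.539.

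CXCL8 therefore held a larger share in both resistant lines, including R2, where the sum was lower than in parental cells. CXCL5 contributed 3.62% in parental cells, 6.94% in R1 and 5.05% in R2. CXCL3 contributed 28.2%, 26.2% and 29.4%, and CXCL2 10.2%, 8.67% and 7.47%. These sums and shares carry no test.

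**Figure D3:**
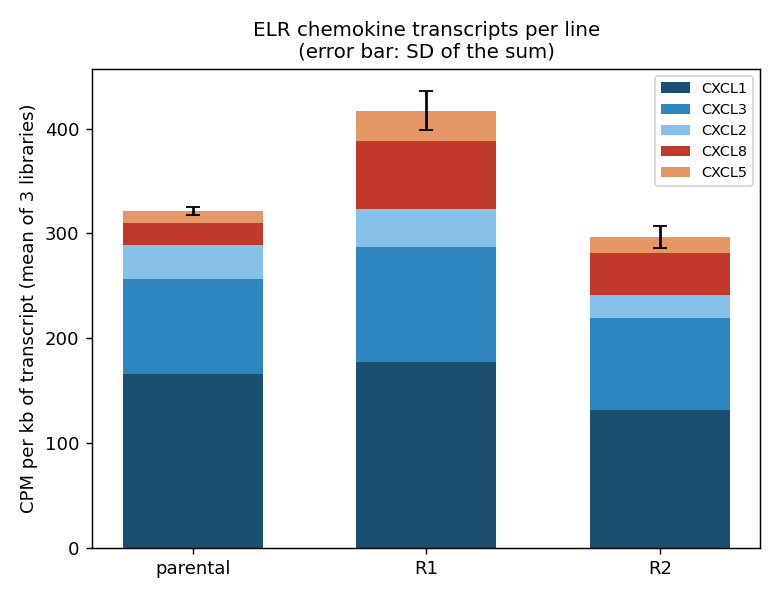
Stacked mean CPM per kb of transcript (y axis) of the 5 ELR chemokine genes in each line (x axis), with the SD of the sum over 3 libraries. The CXCL8 segment (red) grows from 20.8 CPM per kb in parental to 65.2 in R1 and 40.5 in R2, while the CXCL1 segment (darkest) is 165, 177 and 132.

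Along chromosome 4, the genes of at least 1 CPM next to the ELR genes were RASSF6 on the CXCL8 side and MTHFD2L, EREG and AREG beyond CXCL2. EREG, which encodes the EGFR ligand epiregulin, rose from 34.4 ± 3.49 CPM to 287 ± 18.3 in R1 (log2 fold change 3.06) and 139 ± 7.90 in R2 (2.01). AREG, for the EGFR ligand amphiregulin, rose from 19.9 to 81.4 and 63.5 CPM (log2 fold changes 2.03 and 1.67). Both were lower in R2 than in R1, EREG by a log2 fold change of -1.04 and AREG of -0.36.

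MTHFD2L, which lies nearest to CXCL2 of these, was not called in any comparison (29.8, 26.8 and 31.5 CPM in parental cells, R1 and R2). RASSF6 was called only in R2 against parental cells (log2 fold change 0.48, adjusted p = 0.000105). The chromosomal order thus placed CXCL8 and CXCL5, the ELR genes with the largest log2 fold changes, on both sides of CXCL1, whose value did not pass the test in R1.

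**Figure D4:**
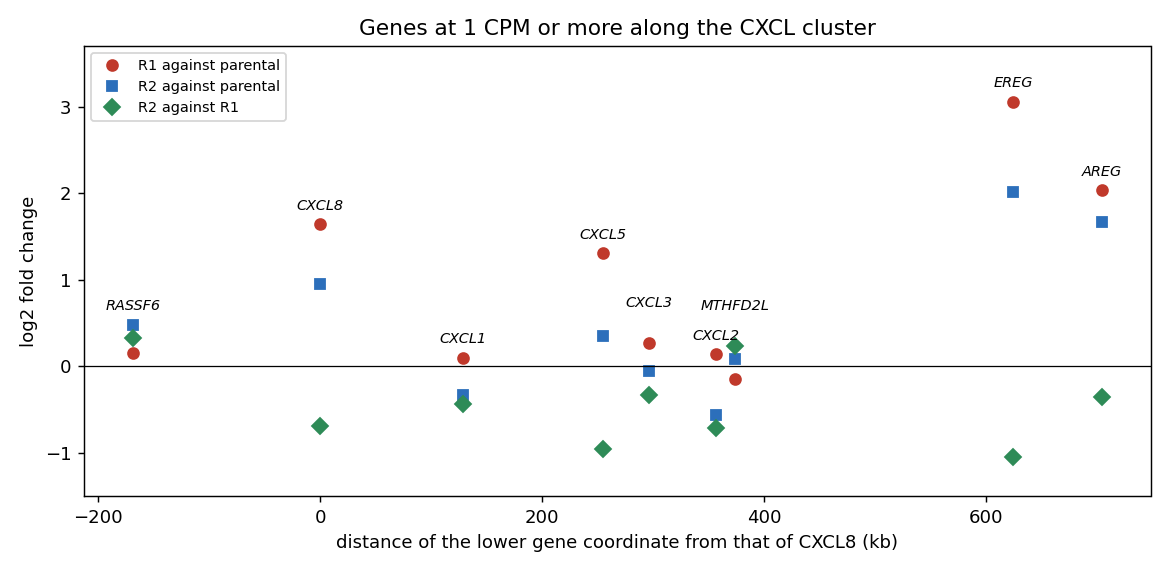
Log2 fold change (y axis) of the genes of at least 1 CPM along the chromosome 4 cluster, by distance of the gene's lower annotated coordinate from that of CXCL8 in kb (x axis). Circles are R1 against parental, squares R2 against parental and diamonds R2 against R1. EREG and AREG at the right have the highest values against parental, and those of CXCL1, CXCL3 and CXCL2 lie between -0.57 and 0.27.

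Near CXCL14 on chromosome 5, SLC25A48, a mitochondrial carrier family gene, was at 0.0788 CPM in parental cells, 1.45 in R1 and 0.602 in R2. Its log2 fold changes were 4.05 (adjusted p = 1.49e-07) and 2.79 (adjusted p = 0.000343), its parental level resting on few counts. Its lower coordinate, 135579172, lies just beyond the RefSeq end of CXCL14 (135578991) and inside the GENCODE span of CXCL14, which runs to 135579279. Whether reads at this border were assigned to the right gene was not tested. TGFBI, which encodes a secreted matrix protein, was at 0.798, 27.3 and 22.8 CPM (log2 fold changes 5.11 and 4.85). MACROH2A1, on the other side, was at 360, 365 and 361 CPM and was not called in any comparison. Of the 3 CXCL14 neighbours within 500000 bases, 2 were thus called higher in each resistant line, beside 14.0% of all genes in R1 and 12.3% in R2.

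Neither of the 2 neighbours of CCL20 (MFF and AGFG1) and none of the 4 of CCL15 was called in any comparison. Among the 29 neighbours of CXCL16, 4 were higher in R1 (SPNS3, SPNS2, PFN1 and KIF1C) and 5 lower (SMTNL2, GLTPD2, CAMTA2-AS1, ZFP3 and ZNF594), beside 14.0% higher and 13.4% lower among all genes. In R2 2 were higher (SPNS3 and SPNS2) and 10 lower, beside 12.3% and 11.6%. The count of neighbours higher in R1 is near that background.

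The genes whose log2 CPM followed CXCL14 most closely over the 9 libraries, out of 13037 genes ranked by Pearson's r, were ALPP (an alkaline phosphatase), SLC2A3 (a glucose transporter), CBX6, AREG and IGFBP3 (an IGF-binding protein). Their r ranged from 0.998 to 0.999, as a description only, since the libraries fall into 3 lines. ALPP was at 4.51, 89.6 and 47.9 CPM and IGFBP3 at 32.4, 178 and 138 CPM in parental cells, R1 and R2. Unlike CXCL14, these genes were well above 0 in parental cells. The next gene in that order, PGBD5 (r = 0.998), had 1 count in the parental libraries and 15.3 and 6.16 CPM in R1 and R2. It is named outside the rule and with its values known.

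Of the 40 other chemokine ligands listed, 24 had 0 counts in all libraries, 9 had 1 to 9 counts and 7 were tested, of which 4 reached 1 CPM in a line. A further ligand under 1 CPM, CCL26, was called higher in R2 and is named after its values were seen (log2 fold change 2.39, adjusted p = 0.00995, on 27 counts in R2). By DESeq2, 1 ligand of the other CC ligands was called higher in R2, where edgeR called 2 (CCL24 and CCL26). CXCL11, a ligand of CXCR3, was at 0.376 ± 0.237 CPM in parental cells, 1.68 ± 0.493 in R1 and 1.34 ± 0.426 in R2, and rose in both (log2 fold changes 2.12 and 1.78). CX3CL1, the membrane-bound fractalkine, rose in R1 from 0.398 to 1.31 CPM (log2 fold change 1.69, adjusted p = 0.00265). It was at 0.593 CPM in R2 (adjusted p = 0.472).

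CCL28, a mucosal chemokine, went the other way, from 4.89 ± 0.529 CPM in parental cells to 2.64 ± 0.266 in R1 and 1.20 ± 0.194 in R2 (log2 fold changes -0.88 and -2.01), and it was also lower in R2 than in R1 (-1.13, adjusted p = 0.00118). CCL24, an eosinophil attractant, had 1 count over the 3 parental libraries and 52 in each resistant line. The ratio of its level was 53.7 for both, with a 95% counting interval of 9.23 to 2163 in R1 and 9.22 to 2160.3 in R2.

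Few chemokine receptors were detected in the cells. Of 24 chemokine receptor genes, 10 had 0 counts in all libraries, 6 had 1 to 9 counts, 8 were tested and 2 reached 1 CPM. Among the receptors of the chemokines described here, CXCR1 had 1 count and CXCR2 had 3 counts in all 9 libraries, CXCR6 had 0, and CCR6 had 27. These 4 were named for their ligands, outside the naming rule and with their values known.

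CXCR4, the receptor of CXCL12, rose from 4.63 ± 0.0921 CPM in parental cells to 8.15 ± 0.102 in R1 (log2 fold change 0.81, adjusted p = 2.24e-05). In R2 it was at 4.07 ± 0.493 CPM (adjusted p = 0.403), lower than in R1 (log2 fold change -0.997, adjusted p = 9.82e-06). The atypical receptor ACKR3 fell from 52.3 ± 3.16 CPM to 33.1 ± 2.67 in R1 and 34.6 ± 0.774 in R2 (log2 fold changes -0.66 and -0.59).

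Of 20 listed genes for cytokines that can induce these chemokines and for their receptors, 16 were tested. The list also holds IL1RN, the interleukin-1 receptor antagonist, which was not among the 16. In R1 8 were higher and 2 lower, and in R2 6 were higher and 1 lower, with medians of 0.84 and 0.53 on the log2 scale (by DESeq2, 7 and 1 in R1 and 5 and 1 in R2). Among all genes, 14.0% were higher and 13.4% lower in R1, and 12.3% and 11.6% in R2. IL33, an alarmin of the interleukin-1 family, had the largest value, from 0.704 CPM to 22.2 in R1 and 19.7 in R2 (log2 fold changes 4.93 and 4.76). TNFSF15, a TNF family ligand, rose from 5.55 to 17.9 and 14.6 CPM, and IL17C, an epithelial interleukin-17 family cytokine, from 1.06 to 2.66 and 2.82 CPM. Other cytokines on the list were absent or near the floor. TNF and LTB had 0 counts in all libraries, IL6 had 3, IL1A 13 and IL1B 46, and these are named with their values known.

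IL1R1, the signalling receptor for interleukin-1, moved in opposite directions, falling from 0.713 to 0.228 CPM in R1 (log2 fold change -1.63, adjusted p = 0.00471) and rising to 1.60 CPM in R2 (1.14, adjusted p = 0.00474). Its R1 level rests on 11 counts. Outside the naming rule and with its values known, IL17RE, a receptor for IL17C, was lower in both lines (log2 fold changes -0.60 and -0.97). In the direct comparison of the resistant lines IL1R1 was higher in R2 (log2 fold change 2.77) and IL18, likewise outside the rule, was lower (-0.99).

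All 16 genes on the list of NF-kB subunits and inhibitors were tested. The list also holds the IkB kinase complex genes CHUK, IKBKB and IKBKG, and BIRC3, which enter the counts and medians below. In R1 9 were higher and 2 lower (median 0.22), in R2 5 were higher and 3 lower (median -0.03), and between the resistant lines 0 were higher and 9 lower in R2 (median -0.35). Among all genes the shares higher and lower were 14.0% and 13.4%, 12.3% and 11.6%, and 3.39% and 3.77% in these comparisons. By DESeq2, 9 were higher and 2 lower in R1, and 4 higher and 3 lower in R2. In R2 against R1, 1 was higher and 11 lower at an unadjusted p under 0.05, and 0 were higher and 9 lower by DESeq2. BIRC3, an inhibitor of apoptosis and an NF-kB target, had 41.2, 82.9 and 53.6 CPM in parental cells, R1 and R2 (log2 fold changes against parental cells 1.01 and 0.38). NFKB2, the precursor of p52, had 58.4, 113 and 74.3 CPM (0.96 and 0.35).

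RELB, the partner of p52, had 21.96, 38.6 and 27.1 CPM (log2 fold changes 0.81 and 0.31). NFKBIZ, a nuclear IkB protein, fell instead, from 86.5 to 47.5 and 38.1 CPM (-0.86 and -1.19). Between the resistant lines BIRC3, NFKB2, RELB and NFKBIZ were all lower in R2, by log2 fold changes of -0.63, -0.61, -0.51 and -0.32. REL and NFKBIA, named after their values were seen, were lower in R2 than in parental cells too (-0.28 and -0.35), and REL also in R1 (-0.48). These are transcript levels, and NF-kB activity was not measured.

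**Figure D5:**
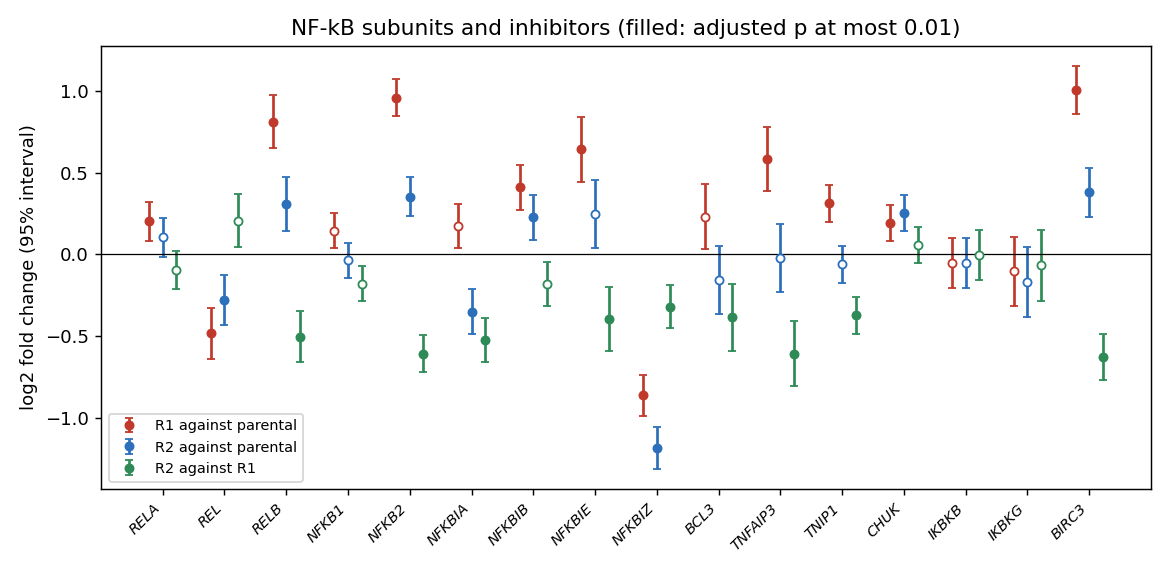
Log2 fold changes (y axis) with 95% intervals of the 16 genes on the list of NF-kB subunits and inhibitors (x axis) for R1 against parental (red), R2 against parental (blue) and R2 against R1 (green), filled where the adjusted p was at most 0.01. The list also holds CHUK, IKBKB, IKBKG and BIRC3. For RELB, NFKB2 and BIRC3 the red points (0.81, 0.96 and 1.01) lie above the blue (0.31, 0.35 and 0.38), and NFKBIZ is below 0 in all 3 comparisons.

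Transcripts of inflammatory genes, such as those of the ELR chemokines, are controlled by RNA-binding proteins. ZFP36 family proteins and KHSRP promote their decay, TIA1 represses their translation and ELAVL1 stabilises them. Of 10 such proteins listed, 9 were tested and 1 (ZFP36) was listed at 0. In each resistant line 0 were higher and 3 lower than in parental cells, namely TIA1 (94.8, 64.3 and 76.3 CPM in parental cells, R1 and R2), ZFP36L2 (205, 157 and 143 CPM) and KHSRP (507, 452 and 449 CPM). Their log2 fold changes were -0.56, -0.39 and -0.17 in R1 and -0.32, -0.52 and -0.17 in R2, beside 13.4% and 11.6% of all genes called lower. ELAVL1 was at 155, 157 and 162 CPM and was not called. At an unadjusted p under 0.05, 0 were higher in either line and 4 and 7 lower, and by DESeq2 0 were higher and 3 lower in each. Between R1 and R2, TIA1 was higher in R2 (0.25) and ZFP36L1 lower (-0.24).

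Of 6 proteases that trim or shed chemokines, 4 were tested, 0 were higher and 3 were lower in each resistant line, also at an unadjusted p under 0.05 and by DESeq2, beside 13.4% and 11.6% of all genes called lower. DPP4, which trims chemokine N-termini, fell from 5.84 ± 0.773 CPM to 3.13 ± 0.274 in R1 and 2.62 ± 0.420 in R2 (log2 fold changes -0.91 and -1.16). ADAM10, a sheddase of CXCL16, fell from 374 to 303 and 333 CPM (-0.30 and -0.17), and ADAM17 from 37.3 to 29.8 and 29.0 CPM (-0.33 and -0.37). The level of CXCL16 protein on the surface or in the medium was not measured. None of the 4 was called between the resistant lines (0 at an adjusted p of at most 0.01 by edgeR or DESeq2, and 1 at an unadjusted p under 0.05).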

How the data were processed

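The authors deposited raw read counts per gene for 9 polyA RNA libraries of LIM1215 cells. Per the labels and the study's methods, reads were aligned to hg38 with STAR and counted with htseq-count (HTSeq 0.9.1, with a strand setting labelled reverse), and replicates were not pooled. The gene annotation used for counting is not given in the sources used here. Libraries were assigned to LIM1215-parental, LIM1215-R1 and LIM1215-R2 by their titles.

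A gene entered the test with a sum of 10 or more counts, which left 19102 genes. These were fitted in 1 model of line with the edgeR quasi-likelihood test (edgeR 4.0.16, R 4.3.3, TMM scaling), for 3 comparisons, and p-values were adjusted over all genes of a comparison by Benjamini-Hochberg. Genes were called at an adjusted p of at most 0.01. The study's minimum of 1.5 on the absolute log2 fold change was applied where stated. On simulated counts for 18154 genes, 99% of 200 genes changed by 2.5 on the log2 scale were recovered. The same small spread was set for every gene, and genes with very low counts were not changed. Recovery of smaller changes or at low levels was therefore not covered. DESeq2 1.42.0 was an alternative.

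The chemokine genes and the gene lists were chosen with earlier results of these data known. All 9 chemokine genes were named. From each list, up to 4 genes were named that were called in any comparison, reached 1 CPM in a line and had the largest log2 fold changes against LIM1215-parental. Expressed neighbours within 500000 bases (between the lower annotated coordinates) and the 5 genes most like CXCL14 were named too. Positions, promoters and overlaps come from RefSeq GRCh38.p14, and promoter motifs were sought in the 250 bases before each start. Limits for a count of 0 use 3 counts, and they and the intervals of counts cover counting error only, since PCR copies are not independent molecules.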

Additional observations from a re-analysis of the deposited data

Results flagged for a closer look

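The 8 detected chemokine genes differed between the resistant lines in the size or direction of their change from parental cells, by the direct test of R2 against R1 (edgeR quasi-likelihood test, Benjamini-Hochberg adjustment over all genes tested). The log2 fold changes were -0.43 for CXCL1, -0.71 for CXCL2, -0.33 for CXCL3, -0.95 for CXCL5, -0.69 for CXCL8, -1.33 for CXCL14, -0.30 for CXCL16 and -1.69 for CCL20. For CCL20 the 2 lines lay on opposite sides of parental cells. For CXCL1 and CXCL2 only the fall in R2 passed the test against parental cells. The 3 libraries of a line are technical replicates, so the lines cannot be told apart from the single cultures that they stand for.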

How the results depend on the processing

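Each log2 fold change was recomputed under up to 17 alternatives. These were other scaling, filters and tests, a replicate block, a fit of only the libraries compared, and leaving out each library. Of 373 values, 372 kept their direction and their side of the threshold. The exception was CXCL5 in R2 against parental cells without R2 replicate 2 (0.31, adjusted p = 0.0116), which left 2 of the chemokine genes called higher there instead of 3. With a minimum absolute log2 fold change of 1 in place of 1.5, 2 genes passed in R1, 1 in R2 and 2 between the resistant lines. Where at least 10 counts were required in every library, CXCL14 was not tested and 7 genes were lower in R2 than in R1.

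With the replicate number as a block, 5 genes were higher and 0 lower in R1, 3 higher and 3 lower in R2, and 8 lower between the resistant lines, as without it. Deviations of same-numbered libraries correlated at -0.17 to 0.49, and not every library correlated best with its own number. Some libraries with different numbers correlated too, as parental replicate 2 did with R2 replicate 3 (0.36). What the libraries share beyond a number was not tested. Counting depth limits CXCL14, CCL20 and the low-level ligands most.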
